A study of Saccharomyces cerevisiae with 54 samples.

Results

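Flocculins are wall-anchored glycoproteins through which yeast cells stick to one another and to surfaces. Flo1, Flo5, Flo9 and Flo10 are lectin-like adhesins that bind mannose chains on neighbouring cells, Flo11 (also called Muc1) serves invasive growth, filament formation and biofilms, and Flo8 is a transcription activator of flocculin genes. The 5 adhesin genes are mostly silent in laboratory strains in glucose medium, and the Cyc8-Tup1 corepressor, which is brought to promoters by DNA-binding proteins and works together with histone deacetylases, is a known repressor of them. The 6 genes described here (*FLO1*, *FLO5*, *FLO9*, *FLO10*, *FLO11* and *FLO8*) were taken by symbol from the R64 gene table, out of 6003 genes in all, which are the 6002 nuclear protein-coding genes of that table and *FLO8*. The table annotates *FLO8* as a pseudogene, as the reference strain carries a stop codon in it. Whether the strains used here carry that allele is not given in the sources used here.

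Peaks of acetylated histone H3, acetylated histone H4 and myc-tagged Hda1, the catalytic subunit of the Hda1 histone deacetylase complex, were compared in *Saccharomyces cerevisiae* grown to mid-log phase in YPD, a rich glucose medium, at 30 °C. Acetylation was profiled in wild type, *hda1∆* (hda1-/- in the labels) and *tup1∆* (tup1-/-) cells, and anti-myc precipitates came from cells without a tag (Untag), with Hda1-18myc, and with Hda1(arb2{delta})-18myc, whose Hda1 lacks the Arb2 domain that binds nucleosomes. Loss of that domain also partly lowered the level of the Hda1 protein, by the account of the study. H4 acetylation and myc were each profiled in a set without and a set with a *Schizosaccharomyces pombe* spike-in in the labels, and H3 acetylation in a set without, which gave 15 groups of 2 libraries. Each of the 30 libraries is a list of the regions that MACS2 called as enriched. The lists held 2191 to 3197 peaks in the 18 acetylation libraries and 846 to 983 in the 4 Hda1-18myc libraries, whereas the untagged libraries held 10 to 235 and those without the Arb2 domain 59 to 628. Among the spike-in libraries, library 2 of the Arb2 deletion (59 peaks, against 628 in library 1) and library 1 of the untagged cells (235, against 10) stood apart from their partners. The coding region of *HDA1* held no peak in any *hda1∆* acetylation library, against 9.81 to 19.1% covered in the wild type, and *TUP1* held none in any *tup1∆* H4 acetylation library, against 2.66 to 7.28%. *TUP1* held no H3 acetylation peak in any strain, so that mark says nothing about the *tup1∆* label. Read counts were not analysed here, so the depth behind a peak is unknown and peak heights were not compared between libraries.

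The adhesin genes lie towards chromosome ends. The submitters' notes and the study's methods name different releases of the genome (R64 and an earlier one), and R64 was used for positions here. *FLO1* (YAR050W) spans chrI:203403-208016, *FLO9* (YAL063C) chrI:24000-27968, *FLO5* (YHR211W) chrVIII:525392-528619, *FLO10* (YKR102W) chrXI:646356-649865 and *FLO11* (YIR019C) chrIX:389572-393675. Their distances to the outermost annotated gene of the chromosome arm were 18.8 kb, 22.2 kb, 33.4 kb, 13.4 kb and 44.5 kb in that order, whereas *FLO8* (YER109C, chrV:375215-377614) lay 199.0 kb away. The coding regions are long, from 3228 bp for *FLO5* to 4614 bp for *FLO1*, and *FLO8* measures 2400 bp. The adhesin genes carry tandem repeats in the middle of the coding region, and *FLO1*, *FLO5* and *FLO9* are near-identical over long stretches. How reads that fit several copies were placed is not given in the sources used here. Values in the middle of these genes, and in any stretch that copies share, are therefore uncertain. A peak in one copy could hold reads of another. The share of this that touches the values was not tested, as no sequence was analysed here.

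The measure used was the percentage of a gene's coding region, and of an upstream window of 1000 bp that ends at the start codon, that lay under peaks in a library. The coding region was also cut into 10 equal bins, of which the first 20% is called the 5′ segment and the last 20% the 3′ segment. Gain was called where the lower library of one strain exceeded the higher library of the other by 10 percentage points or more, and loss in the opposite case. Gain and loss thus refer to the length under peaks and not to the amount of acetylation or of Hda1. With 2 libraries against 2, an exact two-sided permutation test cannot give a p below 0.333, so the separation of the libraries is given in its place. The study describes such libraries as independent ChIP-seq experiments. Whether they came from separate cultures is not given in the sources used here, so their spread may be partly technical.

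In wild-type cells, H3 and H4 acetylation peaks were found at the 3′ end of *FLO1* and *FLO9* and were absent from the 5′ segment of all 5 adhesin genes, except that *FLO11* was covered to 10.7% there in H4 acetylation library 2 with spike-in. H3 acetylation peaks covered 18.1 and 17.9% of the *FLO1* coding region in libraries 1 and 2, and 25.6 and 28.4% of *FLO9*. *FLO5*, *FLO10* and *FLO11* were at 0 in both. All of this coverage lay near the stop codon, since the peaks at *FLO1* ran from 3780 and 3789 bp after the start codon past the end of the gene, and those at *FLO9* from 2951 and 2841 bp. H4 acetylation without spike-in gave the same order, with 22.2 and 20.9% at *FLO1* and 35.9 and 35.8% at *FLO9*, while *FLO5* and *FLO10* were at 0 and *FLO11* was at 7.85 and 0%. In the spike-in set the peaks were longer. *FLO5* then reached 18.4 and 18.7% and *FLO10* remained at 0. *FLO11* measured 18.2% in library 1 and 82.1% in library 2, a gap between partners that no other member showed in wild-type cells. The upstream windows of the 5 adhesin genes held no acetylation peak in any of the 6 wild-type libraries.

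**Figure D1:**
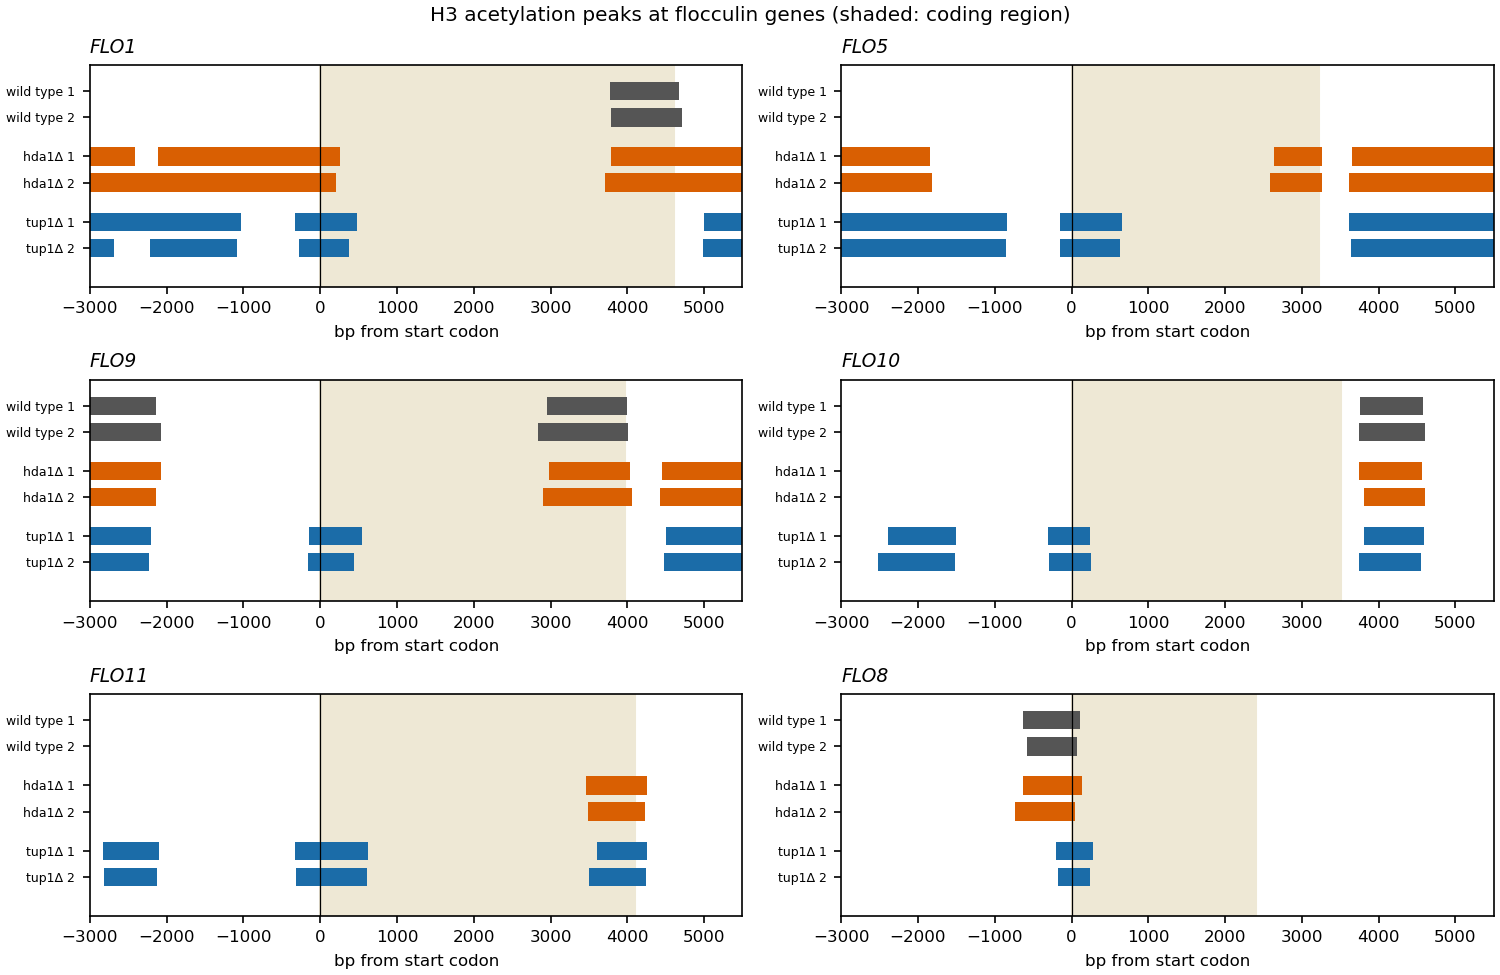
H3 acetylation peaks (bars) from 3000 bp before to 5500 bp after the start codon of each gene, on a horizontal axis in bp from the start codon, with 1 line per library, 2 libraries per strain, and the coding region shaded; bars that reach the edge continue beyond it. In *tup1∆* cells all 5 adhesin genes have a peak across the start codon that neither wild-type library has, and the 3′ peaks of *FLO1* and *FLO9* are missing.

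In *tup1∆* cells, H3 acetylation peaks lay over the start of every adhesin gene. A peak crossed the start codon of all 5 in both libraries, reaching from 325 bp before to 483 bp after it at *FLO1* (271 and 368 bp in library 2), and from 333 bp before to 622 bp after it at *FLO11* (310 and 609 bp). The coverage of the 5′ segment rose from 0% in both wild-type libraries to 52.4 and 40% at *FLO1*, to 100 and 97.9% at *FLO5*, to 68.5 and 55.6% at *FLO9*, to 34.2 and 35.6% at *FLO10* and to 75.9 and 74.3% at *FLO11*. The upstream window, at 0% in the wild type for all 5, rose to 32.5 and 27.1% at *FLO1*, 31.6 and 29.7% at *FLO5*, 14.5 and 15.8% at *FLO9*, 31.1 and 29.6% at *FLO10*, and 33.3 and 31.0% at *FLO11*. The libraries of the strains did not overlap at any of these genes. Over all genes, 8.36% gained in the 5′ segment, 12.2% gained upstream and 4.96% gained in both, while all 5 adhesin genes gained in both. *FLO1*, *FLO5* and *FLO9* may share reads, so their gains may not be separate observations, which was not tested. Among the 712 genes within 50 kb of the outermost annotated gene, where all 5 adhesin genes lie, these shares were 16.0% for the 5′ segment and 22.5% upstream. The median change of the 6 members in the 5′ segment was 54.1 percentage points, against a median of 0.0 and a mean of 3.14 over all genes. The 5′ and 3′ segments were chosen as measures after the profiles in 10 bins had been seen.

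The 3′ end differed from gene to gene in *tup1∆* cells. The 3′ segment of *FLO1* fell from 90.4 and 89.4% to 0% in both libraries, and that of *FLO9* fell from 100% in both to 0% in both. Loss in the 3′ segment was called for 4.68% of all genes, and a gain in the 5′ segment together with a loss in the 3′ segment, the case of *FLO1* and *FLO9*, for 0.466%. As the segments were chosen after the profiles had been seen, that share only describes how common the case was. *FLO1* and *FLO9* are also near-identical over long stretches and may share reads. *FLO11*, without a 3′ peak in wild-type cells, gained one, with 61.3 and 73.7% of its 3′ segment covered (gains over all genes, 5.65%). *FLO5* and *FLO10* stayed at 0% there. Over the whole coding region, *FLO5* reached 20.4 and 19.6% and *FLO11* 27.4 and 29.6%, both gained (10.3% of all genes), and *FLO9* fell to 13.7 and 11.1%, a loss (4.96% of all genes). *FLO1* fell to 10.5 and 8.0%, with the nearest libraries of the strains 7.39 points apart, and *FLO10* measured 6.84 and 7.12%, so neither was called.

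**Figure D2:**
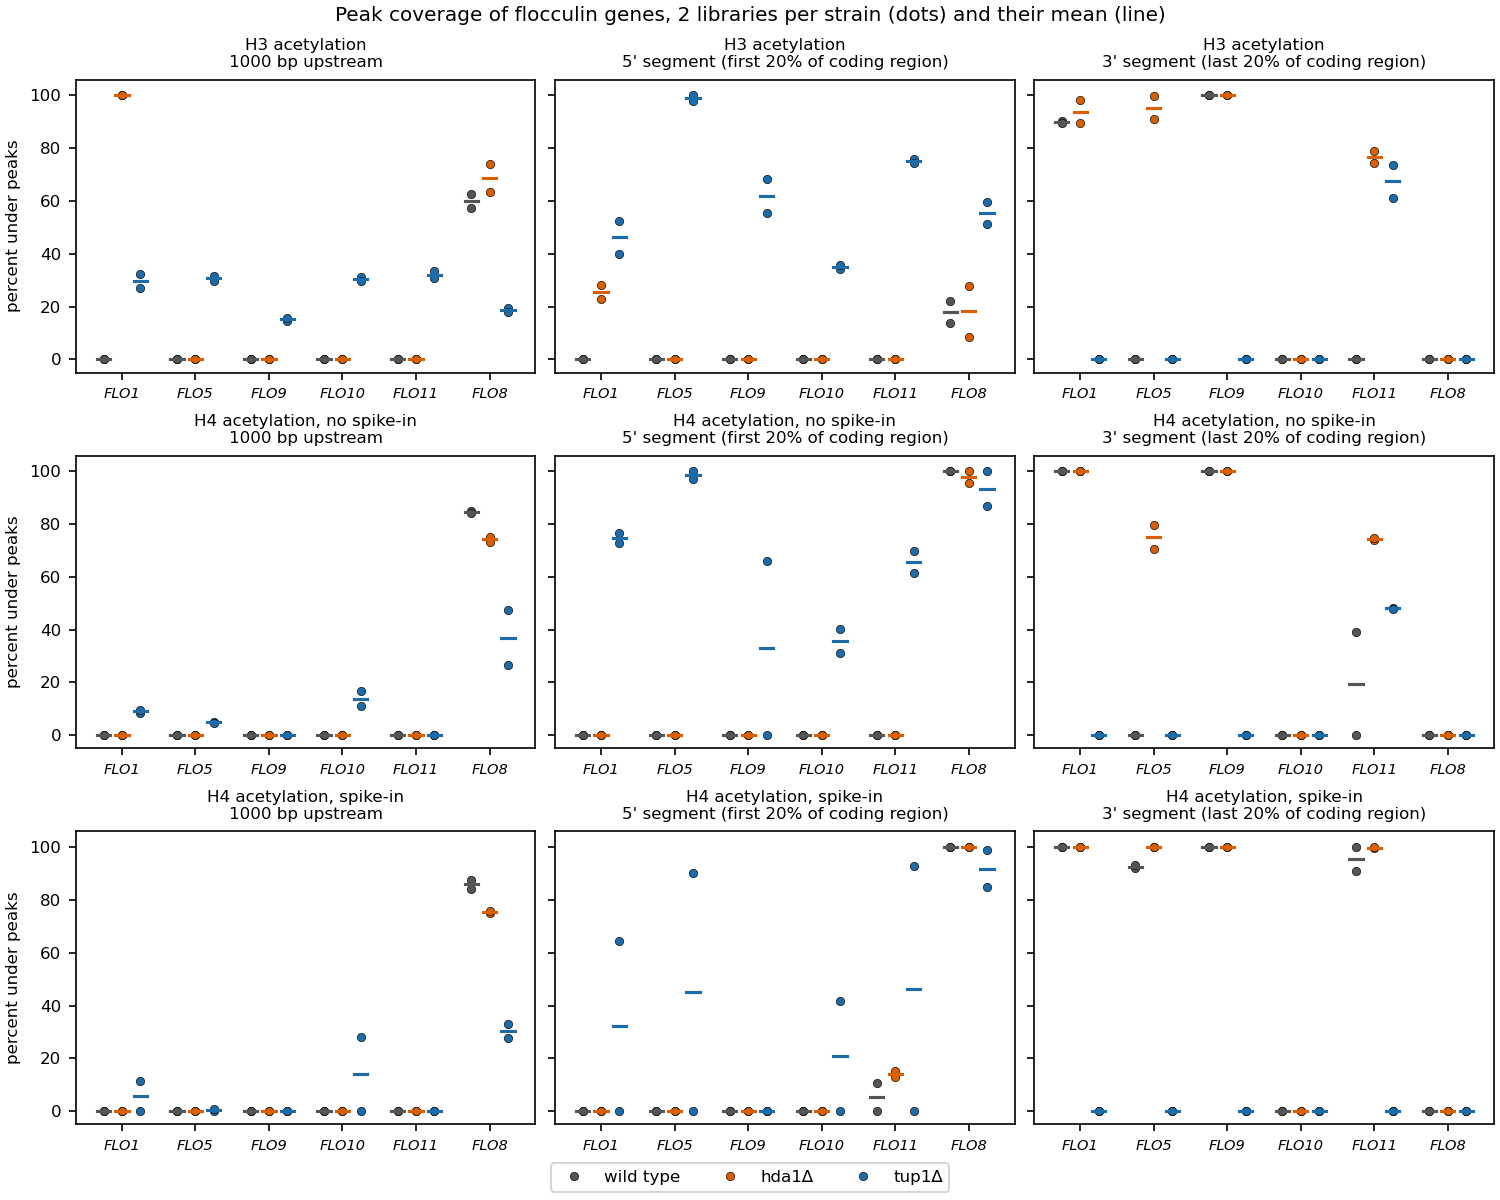
Percentage of the 1000 bp upstream window, the 5′ segment and the 3′ segment of the coding region under acetylation peaks (vertical axis) for each gene, with 1 dot per library, 2 libraries per strain, and a line at their mean; rows are H3 acetylation, H4 acetylation without spike-in and H4 acetylation with spike-in. At the 5 adhesin genes, the *tup1∆* dots lie above wild-type values of 0% in the upstream and 5′ segment panels of H3 acetylation, whereas the *hda1∆* dots of H3 acetylation rise upstream and in the 5′ segment of *FLO1* and in the 3′ segment of *FLO5* and *FLO11*.

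H4 acetylation without spike-in changed in *tup1∆* cells at the same places as H3 acetylation, but the new peaks reached less far upstream. The 5′ segment rose from 0% to 76.7 and 72.9% at *FLO1*, to 97.0 and 100% at *FLO5*, to 40.2 and 31.2% at *FLO10* and to 69.7 and 61.3% at *FLO11*, which were 4 gains (7.21% of all genes). *FLO9* was covered in 1 library only, at 65.9 and 0%. These start peaks were weak within their own lists, and the lower *FLO11* peak, in library 2, stood at the 0.5th percentile of fold enrichment. When the peaks of each library were taken by rank until all compared libraries covered the same length, 2 of these gains remained, since *FLO10* and *FLO11* then had a peak in 1 of the 2 libraries. Upstream of the start codon, *FLO10* at 11.0 and 16.8% was the single gain (11.6% of all genes), *FLO1* measured 8.6 and 9.5%, *FLO5* 4.9 and 4.8%, and *FLO9* and *FLO11* were at 0. The 3′ segment of *FLO1* and *FLO9* fell from 100% in both wild-type libraries to 0% in both *tup1∆* libraries, as for H3 acetylation the 3′ peak was lost (losses over all genes, 4.78%). *FLO11* measured 48.4 and 47.9% there, against 39.2 and 0% in the wild type, with the nearest libraries less than 10 points apart. Over the whole coding region *FLO5* and *FLO11* gained, at 19.4 and 20.3% and at 23.6 and 21.8% (8.23% of all genes), and *FLO9* lost coverage, at 13.2 and 0% (5.33%).

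In the spike-in set, the 3′ losses were again present, while the start peaks were found in 1 *tup1∆* library of 2. The 3′ segment fell to 0% in both *tup1∆* libraries at *FLO1* and *FLO9*, from 100% in both wild-type libraries, at *FLO5*, from 92.0 and 93.4%, and at *FLO11*, from 91.1 and 100%, so that 4 members lost coverage there (4.45% of all genes). Over the whole coding region, *FLO1* and *FLO9* were called as lost (5.48% of all genes). Library 1 of *tup1∆* held no peak that touched the coding region of any of the 5 adhesin genes. Library 2 covered the 5′ segment of *FLO1* to 64.3%, of *FLO5* to 90.1%, of *FLO10* to 41.9% and of *FLO11* to 92.8%, with *FLO9* at 0%. No 5′ segment was therefore called as gained (6.8% of all genes), against 4 with library 1 left out. The *FLO11* peak of library 2 was among the weakest of its list, with a fold enrichment of 1.14 and a −log10 q of 1.76. Library 1 was otherwise no small list, with 2565 peaks against 2593. The H4 acetylation lists with spike-in held peaks with q up to 0.0336, and those without up to 0.00982, so the sets were not listed to the same threshold, and the part of this in their differences was not tested.

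**Figure D3:**
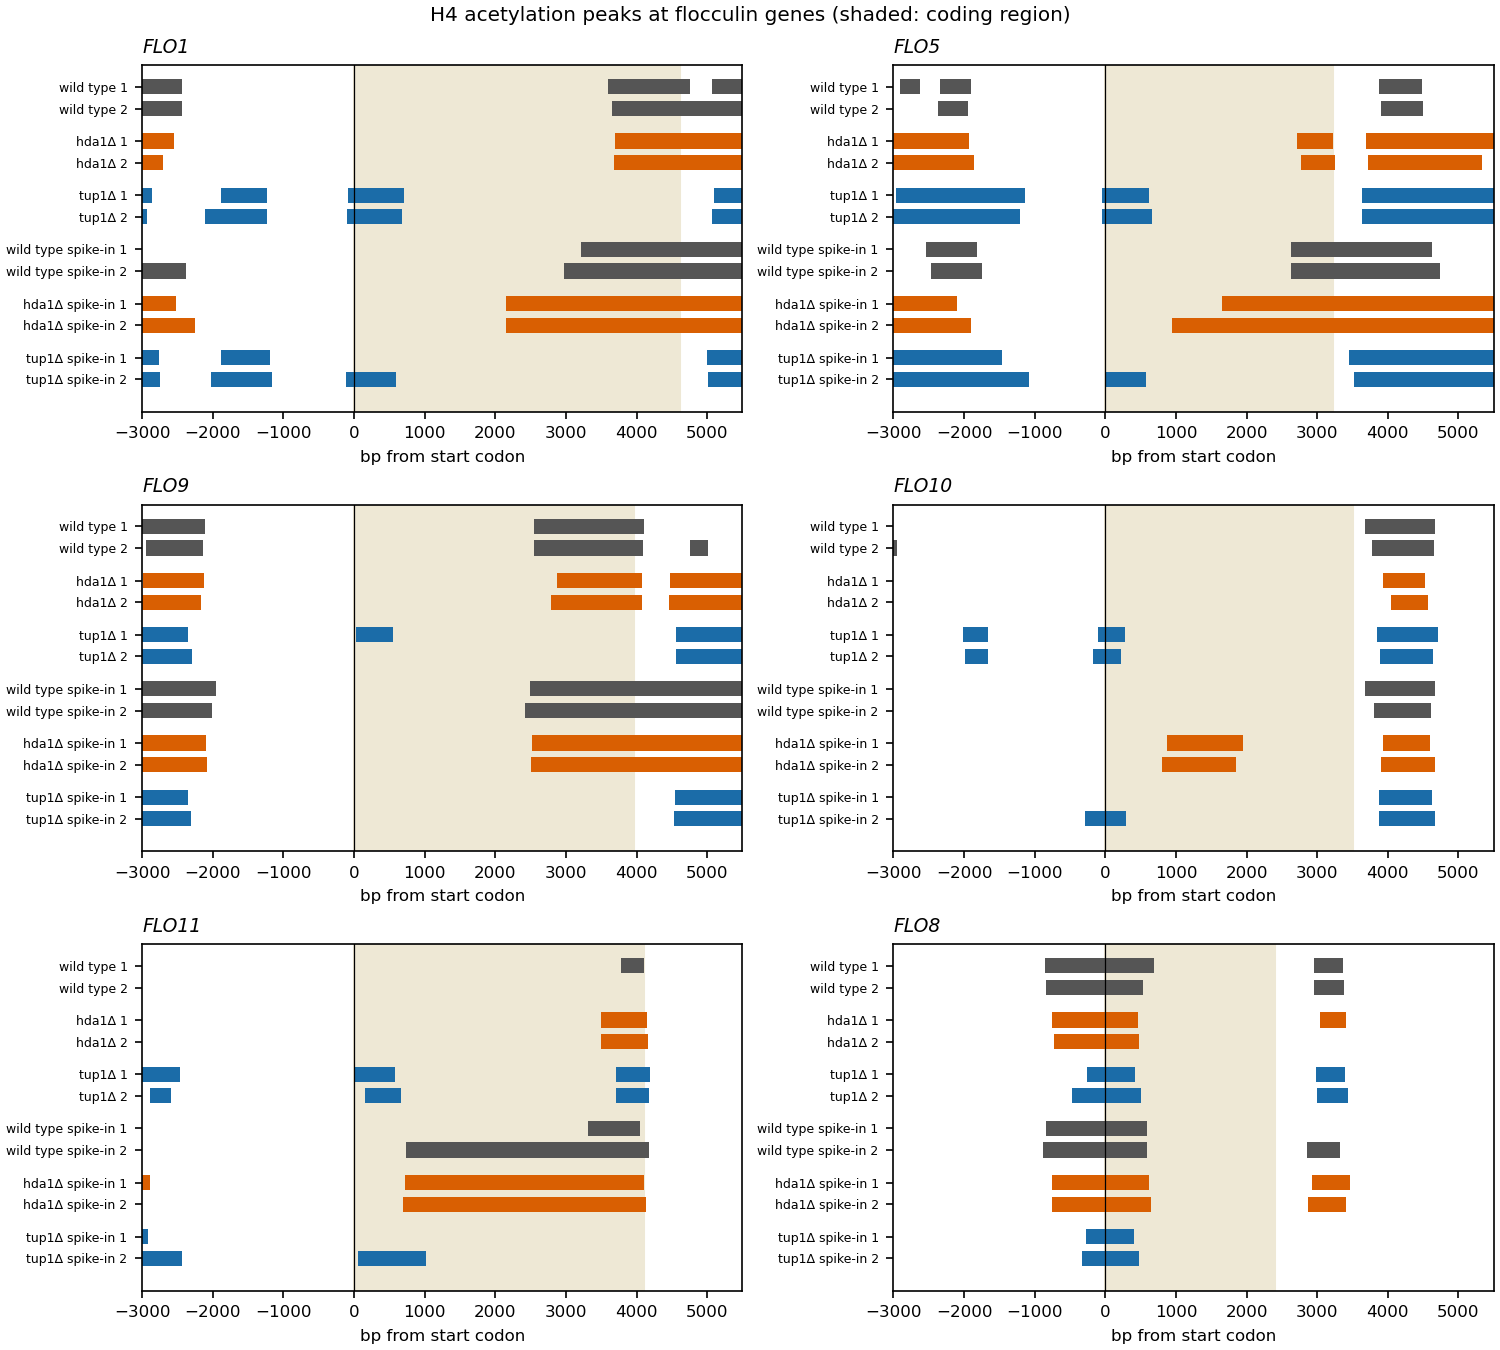
H4 acetylation peaks (bars) from 3000 bp before to 5500 bp after the start codon of each gene, on a horizontal axis in bp from the start codon, with 1 line per library for the set without spike-in (upper 6 lines) and the spike-in set (lower 6 lines), and the coding region shaded; bars that reach the edge continue beyond it. The *hda1∆* spike-in peaks extend into the middle of *FLO1* and *FLO5*, and a separate peak lies inside *FLO10*. Wild-type spike-in library 2 covers *FLO11* as both *hda1∆* spike-in libraries do.

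In *hda1∆* cells, H3 acetylation peaks were added at the 3′ end of *FLO5* and *FLO11* and upstream of *FLO1*. The coding region of *FLO5* rose from 0% in both wild-type libraries to 18.2 and 20%, and that of *FLO11* from 0% to 15.8 and 14.9%, which were 2 gains (11.3% of all genes and 17.1% of those within 50 kb of the outermost annotated gene). The new peaks lay at the end of the genes, where the 3′ segment reached 90.9 and 99.9% at *FLO5* and 78.9 and 74.4% at *FLO11* (gains over all genes, 6.76%). *FLO1* (23.5 and 24.2%) and *FLO9* (25 and 26.9%) kept the 3′ peaks of the wild type, and *FLO10* was at 0% throughout. At *FLO1* the whole upstream window was covered in both *hda1∆* libraries, against 0% in the wild type, by peaks that began 2119 and 4369 bp before the start codon and ended 258 and 210 bp after it. That was the single upstream gain among the members (10.5% of all genes, with 5.71% lost). Among genes within 50 kb of the outermost annotated gene, 17.0% gained upstream. The 5′ segment of *FLO1* was covered to 28.1 and 22.9% by the same peaks, the only gain there among the members (6.93% of all genes, and 3.18% gained in both stretches). The *hda1∆* H3 acetylation lists covered more of the genome than the wild-type lists, 3131883 and 3152437 bp against 2720225 and 2681703 bp. At equal covered length the *FLO11* gain remained, and *FLO5* held its peak in 1 *hda1∆* library only.

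H4 acetylation peaks with spike-in covered more of the coding regions of 3 adhesin genes in *hda1∆* cells. The 5′ segments stayed without peaks except at *FLO11*, where 12.9 and 15.4% was covered, against 0 and 10.7% in the wild type, which was not called. In the spike-in set the coding region of *FLO1* rose from 30.5 and 35.5% to 53.2 and 53.3%, that of *FLO5* from 18.4 and 18.7% to 48.6 and 70.9%, and that of *FLO10* from 0% in both to 30.4 and 29.8%. These were 3 gains, while 4.26% of all genes gained and 10.9% lost coverage in this comparison. Among genes within 50 kb of the outermost annotated gene, 8.01% gained and 11.9% lost coverage. The *hda1∆* lists with spike-in covered less of the genome than the wild-type lists, 3424835 and 3515952 bp against 3867592 and 3974002 bp. The median change of the 6 members was 25.2 percentage points, against a median of 0.0 and a mean of -3.81 over all genes. The median of the members includes *FLO11*, which was not called. The peaks at *FLO1* and *FLO5* grew towards the 5′ end, starting 2158 and 2154 bp after the start codon of *FLO1*, against 3209 and 2974 bp in the wild type, so that its bins 6 to 10 were fully covered. At *FLO5* they started 1659 and 940 bp after the start codon, against 2634 and 2625 bp. At *FLO10* the peak lay inside the gene, from 880 to 1947 bp and from 806 to 1852 bp after the start codon, apart from the peak beyond the stop codon that every acetylation library had. As said above, values in the middle of the repeat-bearing genes are uncertain. *FLO11* measured 82.5 and 83.1% in *hda1∆* cells, against 18.2 and 82.1% in the wild type. The nearest libraries of the strains were 0.365 points apart, so no change was called. It was called as gained with wild-type library 2 left out, which gave 4 gains in place of 3. *FLO9* did not separate the strains, at 36.6 and 36.8% against 37.1 and 39.1%.

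Without spike-in, this added coverage in the middle was not seen. *FLO5* alone gained over the coding region, from 0% to 16.0 and 14.1% (4.41% of all genes), by a peak in its 3′ segment, which was covered to 79.8 and 70.5%. The 3′ segment of *FLO11* rose from 39.2 and 0% to 74.1 and 74.8%, also a gain (3.27% of all genes). *FLO1* was at 20.1 and 20.4% against 22.2 and 20.9%, *FLO9* at 27.7 and 29.6% against 35.9 and 35.8%, and *FLO10* at 0%. In neither set did an H4 acetylation peak of *hda1∆* cells enter the upstream window of an adhesin gene. Those windows were at 0% in the wild type, so a loss could not be called there. Over all genes, 2.83% gained and 15.3% lost coverage upstream without spike-in, and 2.77% and 13.4% with it. The comparisons of *hda1∆* and of *tup1∆* with the wild type share the wild-type libraries, so they are given side by side and were not tested against each other.

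The activator gene *FLO8* had a pattern of its own, with acetylation across its promoter in wild-type cells. Its upstream window was covered to 62.8 and 57.5% by H3 acetylation, to 84.9 and 84.2% by H4 acetylation without spike-in and to 84.2 and 87.6% with spike-in. In *tup1∆* cells it fell to 19.6 and 17.9%, to 26.6 and 47.3% and to 27.6 and 33.2%, a loss in each of the 3 comparisons (7.23%, 4.55% and 4.73% of all genes). The H3 acetylation peak moved towards the gene, from 628 bp before to 105 bp after the start codon in wild-type library 1 to 196 bp before and 285 bp after it in *tup1∆* library 1, and the 5′ segment rose from 22.1 and 13.8% to 59.6 and 51.2%, the sixth of 6 gains among the members. In *hda1∆* cells the upstream window measured 63.6 and 74.2% for H3 acetylation, 75.1 and 73.3% for H4 acetylation without spike-in and 75.2 and 76.0% with it, none of them past the margin. The importin gene *KAP123* and the nuclear pore gene *GLE2*, the nearest protein-coding genes on either side, changed in no acetylation comparison.

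Hda1 itself was detected near 1 flocculin gene in all 4 Hda1-18myc libraries. No anti-myc peak of any of the 12 libraries touched a coding region of the 6 genes, where 10% of all genes gained without spike-in and 12.5% with it. Upstream of *FLO11*, every Hda1-18myc library had a peak, at chrIX:394606-395049 and chrIX:394660-395205 without spike-in and chrIX:394513-395237 and chrIX:394585-395274 with it. The stretch common to the 4 peaks measured 390 bp and lay between 984 and 1374 bp before the start codon. None of the 4 untagged libraries and none of the 4 libraries without the Arb2 domain had a peak there. The fold enrichments were modest, at 1.8, 1.74, 1.93 and 1.48, between the 29.3rd and the 47.2nd percentile of their own lists. Most of each peak lay beyond the 1000 bp window, which was covered to 7.0 and 1.6% without spike-in and to 16.3 and 9.1% with it, so no member was called there (15.1% and 17.1% of all genes gained). A window of 2000 bp was covered to 22.2 and 27.3% and to 36.2 and 34.5%, against 0% in the untagged and Arb2-deleted cells, and *FLO11* was then called in both sets (gains over all genes, 19.8% and 21.8%; losses on deletion of the Arb2 domain, 12.2% and 17.5%). The Arb2 comparison with spike-in includes the library with 59 peaks, in which a peak could be missing for lack of calls. Without spike-in the Arb2-deleted lists held 573 and 390 peaks.

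**Figure D4:**
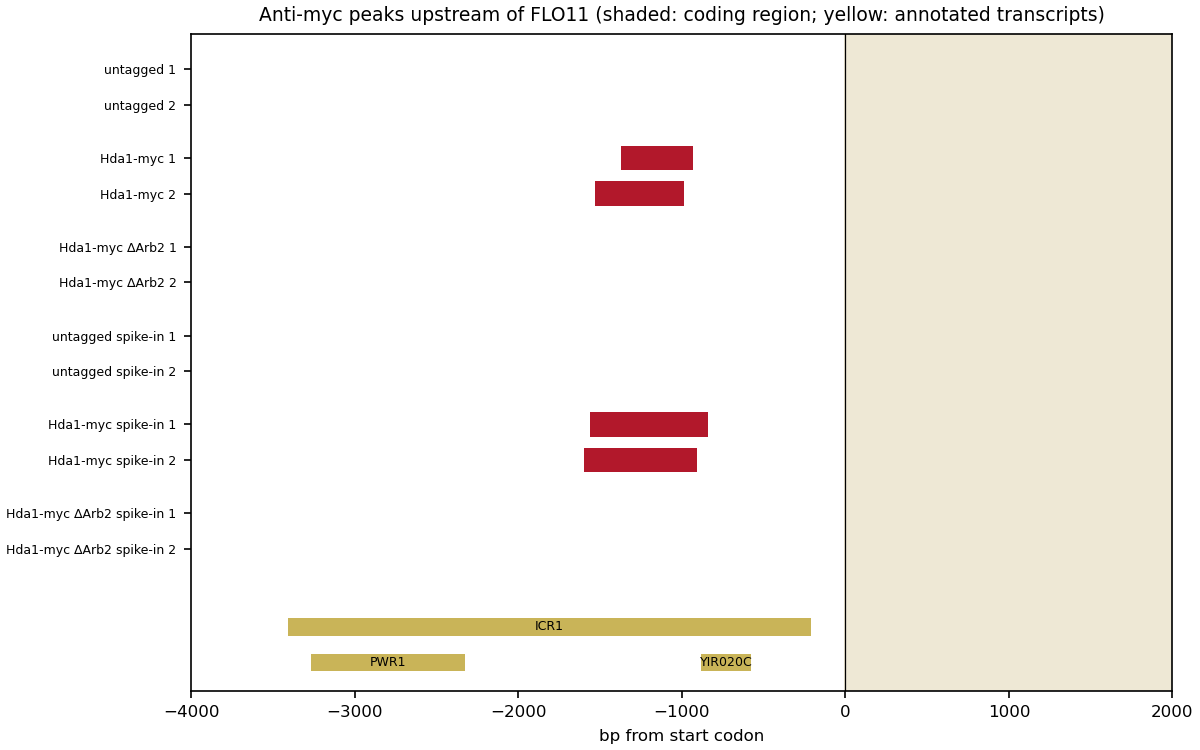
Anti-myc peaks (red bars) from 4000 bp before to 2000 bp after the start codon of *FLO11*, on a horizontal axis in bp from the start codon, with 1 line per library for untagged, Hda1-18myc and Arb2-deleted cells in both sets; yellow bars are annotated transcripts and the coding region is shaded. The 4 Hda1-18myc libraries share a 390 bp stretch between 984 and 1374 bp before the start codon, and the other 8 libraries have no peak in the region shown.

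The annotation places this peak inside *ICR1*, a long noncoding RNA transcribed across the *FLO11* promoter and known to repress it, which spans 208 to 3407 bp before the start codon. *PWR1*, the noncoding RNA of the opposite strand that opposes *ICR1*, lies farther out, from 2323 to 3264 bp. The small reading frame YIR020C, from 579 to 882 bp, is the nearest annotated protein-coding gene, and its own upstream window was covered to 44.4 and 54.6% without spike-in and to 68.0 and 69.0% with it, against 0% in untagged and Arb2-deleted cells. The peaks lay nearer to the start of YIR020C than to that of *FLO11*. The upstream window and coding region of YIR020C held no acetylation peak in any strain or set. Elsewhere, 1 Hda1-18myc library (spike-in library 1) had a peak from 2287 to 2800 bp before *FLO9*, which its partner and both libraries without spike-in lacked.

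Peak coverage also changed at some of the nearest protein-coding genes, in part against the direction of the flocculin gene. YAL063C-A, 1314 bp beyond *FLO9*, was covered to 100% by H3 acetylation in both mutants, against 0% in the wild type. The same was found for H4 acetylation without spike-in. The 3′ segment of *FLO9* itself fell from 100% to 0% in *tup1∆* cells for both marks and stayed at 100% in *hda1∆* cells. With spike-in YAL063C-A was covered to 100% in all 3 strains. YHR212W-A, 10122 bp beyond *FLO5*, was at 100% in *tup1∆* cells for H3 acetylation and in both H4 acetylation sets. It was at 0% in wild-type and *hda1∆* cells. YHR210C, upstream of *FLO5*, rose from 0% to 100% in both *hda1∆* libraries and to 24.6 and 29.8% in *tup1∆* cells for H3 acetylation. Its coding coverage by H4 acetylation peaks with spike-in fell from 55.6 and 85.2% to 0% in both mutants. Its upstream window gained such coverage, from 0% to 37.7 and 36.4% in *hda1∆* cells and to 37.0 and 38.5% in *tup1∆* cells. *GDH3*, a glutamate dehydrogenase gene upstream of *FLO9*, was at 100% for both marks in every strain, and *NFT1*, downstream of *FLO10*, at 0%.

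Calls among 15 regulators of flocculin genes went in both directions. Some genes were only gained, some only lost and some, such as *NRG2*, both. For H3 acetylation over the coding region, 3 gained in *hda1∆* cells, and 2 gained and 2 were lost in *tup1∆* cells, against 11.3% gained and 2.65% lost in *hda1∆* cells and 10.3% and 4.96% in *tup1∆* cells over all genes. *MGA1*, which encodes a heat-shock-factor-like protein of filamentous growth, rose from 0% in both wild-type libraries to 100% in both *hda1∆* libraries and to 92.3% in both *tup1∆* libraries. It also gained H4 acetylation in all 4 mutant comparisons, at 46.6 to 86.9% against 0%. *MSS11*, whose product activates *FLO11* together with Flo8, gained upstream in *tup1∆* cells in all 3 sets, from 11.5 and 0% to 99.0 and 98.2% for H3 acetylation.

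Coverage by H4 acetylation peaks at the regulators changed in both directions. Over the coding regions of the 15, 2 gained and 3 were lost in each mutant with spike-in, against 4.26% and 10.9% of all genes in *hda1∆* cells and 7.66% and 5.48% in *tup1∆* cells. Without spike-in, 1 gained and 2 were lost in *hda1∆* cells, and 1 gained and 4 were lost in *tup1∆* cells, against 4.41% and 12.0% and against 8.23% and 5.33% of all genes. In the upstream windows with spike-in, 0 gained and 2 were lost in *hda1∆* cells (2.77% and 13.4% of all genes), and 3 gained and 2 were lost in *tup1∆* cells (11.2% and 4.73%). Without spike-in, 1 gained and 5 were lost there in *hda1∆* cells (2.83% and 15.3% of all genes), and 2 gained and 2 were lost in *tup1∆* cells (11.6% and 4.55%). In both sets the upstream losses in *tup1∆* cells were at *NRG2* and at *TUP1*, the deleted gene itself. *PHD1* and *SOK2*, which encode related factors of pseudohyphal growth, fell to 0% over the coding region in both mutants and both sets, from 82.7 and 54.9% for *PHD1* with spike-in and from 36.8 and 37.2% for *SOK2*. The upstream window of *SFL1*, a repressor gene of *FLO11*, fell from 100 and 97.5% to 35.0 and 20.2% in *hda1∆* cells with spike-in. *NRG2*, which encodes a repressor related to Nrg1, rose over its coding region for H3 acetylation in both mutants. Coverage went from 46.9 and 56.6% to 100 and 96.5% in *hda1∆* cells and to 100 and 95.2% in *tup1∆* cells. Coverage there by H4 acetylation peaks with spike-in fell from 52.8 and 75.6% to 0% in both. Its upstream window lost H3 acetylation peak coverage in *tup1∆* cells, from 100 and 65.9% to 45.6 and 48.1%. *NRG1*, which encodes a glucose-dependent repressor, was the single regulator whose coding region gained a peak of tagged Hda1, at 100 and 71.8% with spike-in against 0% in untagged and Arb2-deleted cells, and it was not called in the set without spike-in. The 4 other adhesin genes all serve mating. Over their coding regions 1 change was called in the 6 acetylation comparisons, at *AGA2*, a subunit of a-agglutinin, which rose from 0% to 100% in both *tup1∆* libraries for H4 acetylation with spike-in (7.66% of all genes gained). Upstream, 2 of the 4 gained H3 acetylation in *tup1∆* cells (12.2% of all genes), the mating adhesin gene *FIG2*, at 63.8 and 71.4% against 30.6 and 29.5%, and *AGA2*, at 77.1 and 38.7% against 18.9 and 22.0%. *SAG1*, which encodes alpha-agglutinin, lost H4 acetylation peak coverage upstream in *hda1∆* cells in both sets. Such losses were called for 15.3% of all genes without spike-in and for 13.4% with it. Coverage at *SAG1* fell from 82.6 and 84.9% to 0 and 35.8% without spike-in and from 99.6 and 97.2% to 85.2 and 77.0% with it. In *tup1∆* cells with spike-in it fell to 84.0 and 86.7% (losses over all genes, 4.73%). By contrast, *AGA1* gained upstream in *hda1∆* cells without spike-in, at 100 and 67.5% against 38.3 and 44.9%. Over all genes, 2.83% gained and 15.3% lost coverage in that comparison. In *tup1∆* cells *AGA2* gained H4 acetylation upstream in both sets, at 22.9 and 53.1% against 0% with spike-in (11.2% of all genes). Without spike-in it measured 20.6 and 17.6%, against 6.0 and 0% (11.6% of all genes). The upstream window of *AGA2* was covered by tagged Hda1 to 62.4 and 61.6% without spike-in, against 0% in untagged cells, and to 71.4 and 65.9% with it, against 35.9 and 0%. Over all genes, 15.1% gained upstream without spike-in and 17.1% with it. Cells without the Arb2 domain measured 51.8 and 0% there with spike-in, and no loss was called for them without it.

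Across the coding and upstream values of all 30 libraries, *FLO5* and *FLO11* were the members most alike, with a mean absolute difference of 3.38 percentage points. For *FLO5* this was smaller than its difference from the nearest gene outside the family, *GIP1* (4.49), and *FLO11* was nearest to *DDR48* (5.56) outside it. *FLO10* was nearest to *MSA1* (2.19) and *FLO9* to *HXT5* (2.62), and *FLO1* to *SUL1* (5.79), closer than to any other member. *FLO8* lay 18.9 to 23.6 points from the 5 adhesin genes and 6.86 from *RUD3*. The second nearest genes were YIL177C for *FLO5* (4.63), *CMR3* for *FLO11* (6.77), *ATR2* for *FLO10* (2.21), *CLD1* for *FLO9* (2.79), *DSE4* for *FLO1* (6.07) and *SSL2* for *FLO8* (6.87). Small differences are common among genes with few peaks, as 28.4% of all genes were at 0% over the coding region in every H3 acetylation library of wild-type and *hda1∆* cells.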

How the data were processed

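The authors aligned reads with Bowtie2 2.2.5, filtered them with Picard 2.6 and called peaks in each library with MACS2 2.1.0, to a stated q cutoff of 0.05. The submitters' processing notes name R64 (sacCer3), the methods R61-1-1, and the control of each deposited peak list is not given in the sources used here. By the methods, acetylation was set against total H3, with a ratio taken from the spike-in reads, so peak length in the spike-in set can move with that scaling. Reads assigned to both the budding and the fission yeast genome were dropped. The deposited peak lists hold a position, a score, a fold enrichment (ratio), and a −log10 p-value and −log10 q-value by the authors. No sequencing depth is given, so no interval could be attached to a percentage.

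Peaks were merged within each library with Python 3.11.15, numpy 2.4.6 and pandas 2.3.3, and the percentage of each coding region, its 10 bins, its first and last 20%, and the upstream 1000 bp under peaks was computed for 6003 genes. Strand was read from the systematic gene names. Mitochondrial peaks and the 24 samples without a peak list (total H3 and input) were not used. A gene was called when both libraries of a group lay at least 10 percentage points beyond both of the other, in 10 comparisons. Sets with and without spike-in in the labels were kept apart. The coverage computation was checked on random peaks. The call was checked on wild-type H3 acetylation values with simulated noise and a known change, larger than the margin, added to some genes. Named genes were the 6 members, the nearest protein-coding gene on either side, those of 15 regulators and 4 other adhesin genes that were called (up to 4 of a list and comparison), and the 2 genes nearest to each member. The members and lists were chosen with earlier results of these data known. Alternatives were a margin of 25 points, a −log10 q of at least 5, equal covered length, windows of 400 and 2000 bp, same-numbered pairs and each library left out. The segments of 20%, and a gene table moved by 200 bp either way because of the builds, were chosen after seeing the data.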

Additional observations from a re-analysis of the deposited data

Results flagged for a closer look

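At 4 values over the coding region, its segments or the 1000 bp upstream, every mutant library of one H4 acetylation set lay above both of its wild-type libraries, and every mutant library of the other set lay below both of its own. None of these differences between sets was tested. The coding region of *FLO1* changed by -1.33 percentage points in *hda1∆* cells without spike-in and by 20.3 with it, and that of *FLO8* by -5.83 and 1.62. In *tup1∆* cells the coding region of *FLO5* changed by 19.9 points without spike-in and by -9.53 with it, and the 3′ segment of *FLO11* by 28.5 and -95.6. The H4 acetylation lists without spike-in held q values up to 0.00982 and those with it up to 0.0336. The wild-type lists of the sets shared 78.1 to 78.9% of their joint length, against 86.6 to 90.1% between partners within a set. The mean over the coding region of *FLO11* in *tup1∆* cells also moved in opposite directions, by 18.8 points without spike-in and by -38.5 with it, but there the strains overlapped in the spike-in set.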

How the results depend on the processing

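For H3 acetylation in *tup1∆* cells, the upstream and 5′ segment calls changed little. With each library left out, at equal covered length and with a −log10 q of at least 5, all 6 members changed upstream and in the 5′ segment, and 5 did in each with the gene table moved by 200 bp either way. No change turned its direction under any alternative. Of 340 counts of members under alternatives, 41 moved by over 1.5 times.

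With a margin of 25 points, the coding counts became 0 (from 2, H3ac *hda1∆*), 1 (from 3, H3ac *tup1∆*), 0 (from 1, H4ac *hda1∆*), 0 (from 3, H4ac *tup1∆*) and 1 (from 2, H4ac spike-in *tup1∆*), the upstream count 1 (from 2, H4ac *tup1∆*) and the 5′ segment count 0 (from 1, H3ac *hda1∆*). At equal covered length, which keeps fewer peaks of the longer lists, the coding counts became 1 (H3ac *hda1∆*), 2 (H4ac *hda1∆*) and 4 (H4ac spike-in *tup1∆*), the 3′ segment count 1 (from 2, H3ac *hda1∆*), the 5′ segment count 2 (from 4) and the upstream count 1 (both H4ac *tup1∆*). A 2000 bp window gave 3 for H4ac spike-in *tup1∆* (from 1), 4 for H4ac *tup1∆* and 1 for each of the 4 myc comparisons (from 0). With the gene table moved by 200 bp upwards, each of these 4 also gave 1, the 5′ segment count of H3ac *hda1∆* 0 and the upstream count of H4ac *tup1∆* 4. Moved downwards, the counts were 1 for the 3′ segment of H4ac spike-in *hda1∆* (from 0), the 5′ segment of H4ac spike-in *tup1∆* (from 0) and of H4ac *hda1∆* (from 0) and upstream of H4ac *tup1∆*, and 0 for the coding region of H4ac *hda1∆*.

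Leaving out each library in turn gave 1 to 2 (coding, H4ac *hda1∆*), 2 to 4 (coding, H4ac spike-in *tup1∆*), 0 to 4 (5′ segment, H4ac spike-in *tup1∆*), 0 to 1 (5′ segment, H4ac spike-in *hda1∆*), 1 to 2 (upstream, H3ac *hda1∆*), 0 to 1 (upstream, H4ac *hda1∆* in either set), 1 to 3 (upstream, H4ac spike-in *tup1∆*) and 0 to 1 (upstream, both spike-in myc comparisons). The causes were not tested.

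Same-numbered libraries of the groups compared did not deviate together in coding coverage, with correlations of -0.0255 to 0.0793 across 6003 genes. No pairing by number was thus seen between strains, and pairing within a strain was not tested. With the replicate block, the coding count of H4ac spike-in *tup1∆* was 3 in place of 2, and H3ac *hda1∆* kept 2. Depth is unknown, so a region without a peak cannot be told from one that was sequenced too little.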
